A study of Mus musculus with 6 samples.

Results

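Collagen genes are taken here as every gene whose symbol reads Col, a type number, the letter a and a chain number, such as Col4a1. This gave 44 of the 56805 genes in the count table, a rule that uses no measured value. The study compared motor neurons of the cervical cord with those of the thoracic cord in e12.5 mice, in 3 biological replicates for each of the regions. The labels give all 6 samples the genotype control and no treatment, and the series title places them in work on Hox5 genes and motor neuron diversity. Which alleles the control embryos carried, how the motor neurons were isolated and how many embryos went into a library are not stated in the labels. The p-values therefore measure the spread between these samples.

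Collagens are matrix proteins whose chains wind around each other in a helix built on repeated glycine residues. Fibril-forming collagens such as types I, II, III and V make up the fibers of connective tissue and cartilage, and fibril-associated collagens bind to their surface. Type IV collagen forms the network of basement membranes, which in the embryo surround the spinal cord and line its blood vessels. A few collagens cross the cell membrane, among them type XXV collagen, which muscle innervation needs.

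Library totals were 32103071 to 33790634 counts, and 53186131 in thoracic replicate 1. All 8 motor neuron markers (Mnx1, Isl1, Isl2, Lhx3, Chat, Slc18a3, Slc5a7 and Prph) were detected and summed to 309 to 636 CPM (read counts scaled to library size, with TMM factors) in cervical libraries and to 373 to 579 CPM in thoracic ones. Without the replicate number as a block no motor neuron marker was called. With it Isl1 and Slc18a3 were called higher in thoracic libraries (edgeR adjusted p of 0.00105 and 0.0303). Of the 8 motor neuron markers, 3 lay in the cervical direction, and none of these was called. The 5 floor plate markers summed to 412 to 856 CPM in cervical libraries and to 795 to 1119 CPM in thoracic ones. The 8 neural progenitor markers, such as Sox2, Nes and Vim, summed to 801 to 1052 and 977 to 1290 CPM, so markers of other neural cells were also high. Of these 8, Nkx6-1 was called higher in thoracic libraries (edgeR adjusted p = 0.0261), and Nes, Vim and Nkx6-1 were called so with the replicate number as a block. Of all tested genes, 0.35% were called higher in thoracic libraries without the block and 1.39% with it. In bulk RNA a change in the share of a cell type and a change in RNA per cell cannot be told apart.

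Collagen genes together took 460 CPM in cervical replicate 1, 623 CPM in replicate 2 and 797 CPM in replicate 3, against 746, 846 and 900 CPM in thoracic replicates 1, 2 and 3. Cervical replicate 1 was the lowest library and thoracic replicate 3 the highest, and cervical replicate 3 lay inside the thoracic range. The means were 627 ± 168 and 831 ± 78.5 CPM (SD, n = 3 each). Within each replicate number the thoracic library was higher, 1.62-fold, 1.36-fold and 1.13-fold for numbers 1, 2 and 3.

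Of the 44 genes, 42 passed the low-count filter and were tested. Col14a1 was called higher in thoracic libraries, and no collagen gene was called higher in cervical libraries (edgeR's quasi-likelihood test, Benjamini-Hochberg adjusted p below 0.05). That is 1 of 42 (2.38%), where 0.542% of all 21972 tested genes were called, 0.35% higher in thoracic and 0.191% higher in cervical libraries. Same-numbered libraries were taken as pairs from correlations in these same counts, and the labels do not say what such libraries share. With the replicate number as a block 9 of 42 collagen genes (21.4%) were called, all higher in thoracic libraries. Of all genes 1.97% were called with the block (1.39% higher in thoracic and 0.573% in cervical libraries). The 9 collagen genes were Col14a1, Col1a1, Col2a1, Col3a1, Col5a1, Col4a1, Col4a2, Col8a1 and Col8a2. An unadjusted p below 0.05 without the block was found for 12 of 42 (28.6%), 10 of them higher in thoracic libraries, against 8.47% of all genes and 5.19% in that direction. The blocked fit called 12 collagen genes without number 1 (798 of 22237 genes in all), 4 without number 2 (184 of 22146) and 12 without number 3 (283 of 22288). Each of these fits without a number had 1 residual degree of freedom. Of the 12 without number 1, Col19a1 and Col25a1 were higher in cervical libraries, and that fit gave no gene a spread of its own.

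The log2 fold change, cervical minus thoracic (called the log2 difference from here on), was below 0 for 31 of 42 genes (73.8%), against 47.9% of all genes. Its median was -0.34, and that of all tested genes was 0.0083. In 21 of 42 genes (50%) the thoracic library was higher in all 3 numbers, against 16.4% of all genes. The opposite held for 3 genes, Col24a1, Col25a1 and Col26a1 (7.14%), against 15% of all genes. The values of the regions did not overlap for 8 genes with thoracic higher (19.0%, against 7.5% of all genes) and for 2 with cervical higher (4.76%, against 6.25%). Cervical replicate 1 was the lowest library for 22 of 42 genes (52.4%), against 17.7% of all genes.

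**Figure D1:**
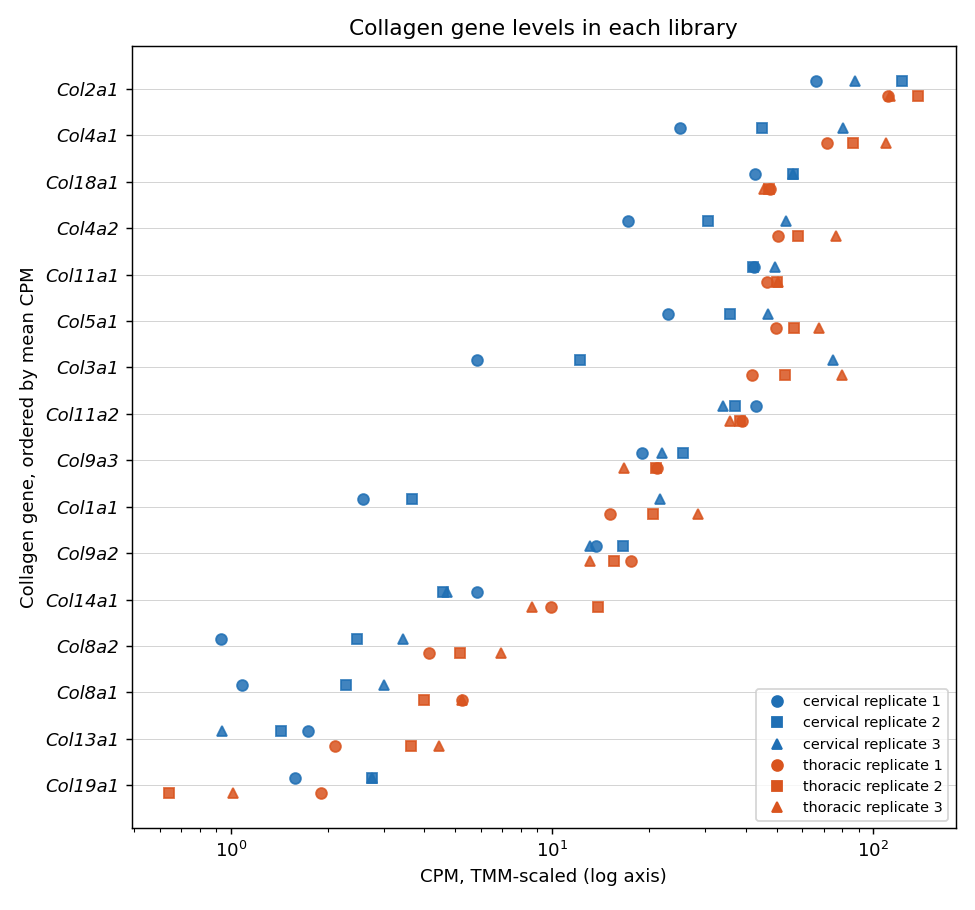
TMM-scaled CPM (log axis) of the 16 collagen genes described in full, with 1 point per library, colour for region and shape for replicate number. Col1a1 and Col3a1 spread widely among cervical libraries, Col14a1, Col8a1, Col8a2, Col13a1 and Col5a1 show no overlap between the regions, and Col11a1, Col11a2 and Col18a1 lie close together in all 6 libraries.

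**Figure D2:**
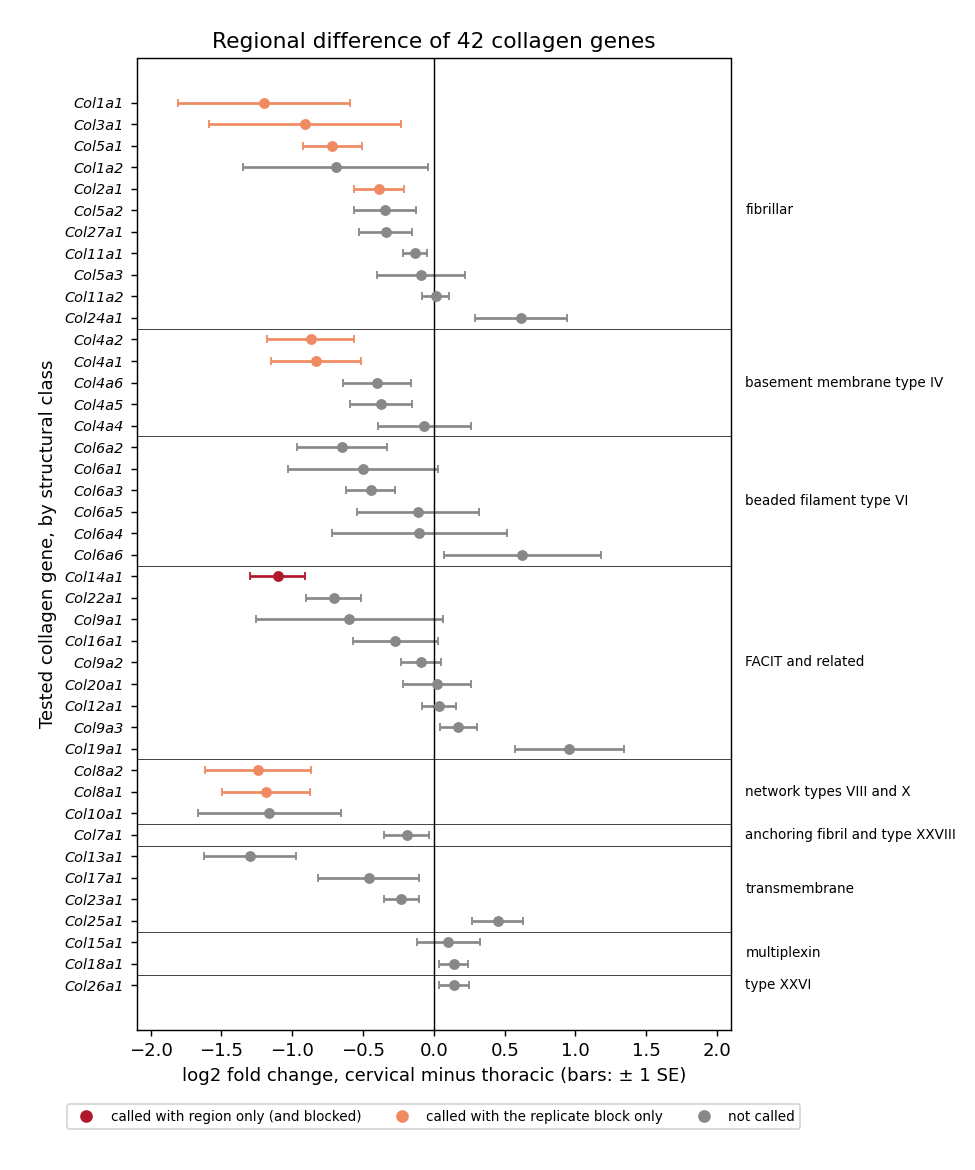
Log2 fold change, cervical minus thoracic, with 1 SE to each side, for the 42 tested collagen genes by structural class. Col14a1 is called in both fits, 8 more genes are called with the replicate block alone, and all 9 lie left of 0.

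The fibril-forming genes of connective tissue, Col1a1, Col1a2 and Col3a1, had the widest spread between cervical libraries among collagen genes that averaged at least 1 CPM. Col3a1, the chain of type III collagen found beside type I in loose tissue and vessel walls, stood at 5.83, 12.2 and 74.9 CPM in cervical replicates 1, 2 and 3 and at 41.8, 53.2 and 79.9 CPM in the thoracic ones. Cervical replicates 1 and 2 were far below every thoracic library and replicate 3 was among them. Its log2 difference was -0.91 (SE 0.68, edgeR adjusted p = 0.824, and 0.0331 with the block). Col1a1, the main chain of type I collagen, stood at 2.57, 3.67 and 21.7 CPM in cervical against 15.1, 20.6 and 28.4 CPM in thoracic replicates. It showed the same order of libraries, with a log2 fold change of -1.20 (SE 0.61, edgeR adjusted p = 0.669, and 0.0122 with the block). Its partner chain Col1a2 stood at 4.18, 7.04 and 44.8 CPM against 22.6, 26.3 and 41.7 CPM, with cervical replicate 3 the highest of all 6 libraries, and was not called (log2 difference -0.69 with SE 0.65, edgeR adjusted p = 0.879, and 0.0669 with the block).

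The regional difference of these genes turned on cervical replicate 3. Without it all 3 were called higher in thoracic libraries. Log2 fold changes were then -2.77 for Col1a1, -2.69 for Col3a1 and -2.42 for Col1a2 (edgeR adjusted p of 0.0191, 0.0388 and 0.0388). No other collagen gene was called in that fit, and the call of Col14a1 was lost. The range of calls over all genes when a library was left out is given in the last section. Within replicate numbers 1 and 2 the thoracic level of Col3a1 was 7.17 and 4.37 times the cervical one, and within number 3 it was 1.07 times. For Col1a1 these ratios were 5.88, 5.63 and 1.31. The same arrangement, with cervical replicates 1 and 2 below every thoracic library and replicate 3 not, was found for 10 of 42 collagen genes (23.8%) and for 3.72% of all tested genes. Col1a1, Col1a2 and Col3a1, from whose values the arrangement was read, are counted among the 10. The other members with this arrangement were Col4a1, Col4a2, Col4a5, Col6a1, Col6a2, Col11a1 and Col27a1.

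Markers of mesenchyme moved with these genes as a sum, though not each of them did. Of the 10 tested, 9 had a log2 difference below 0 and Osr1 had one above 0 (0.41). Prrx2 stood at 0.527, 0.0587 and 0.0626 CPM in cervical replicates, highest in replicate 1. The 13 mesenchyme markers, such as Pdgfra, Prrx1, Twist1 and Foxc1, summed to 4.87, 9.24 and 23.5 CPM in cervical against 14, 17.1 and 22.5 CPM in thoracic replicates. Tcf21, Twist2 and Meox1 fell under the filter, with Tcf21 at 0 in 5 of 6 libraries, and none of the 10 tested markers was called in either fit. The 8 sclerotome and cartilage markers summed to 5.87 to 6.63 CPM in cervical libraries and to 5.71 to 7.19 CPM in thoracic ones, with Scx and Cnmd making up most of the sum and Matn1 at 0 in all 6. Of these 8, 3 passed the filter and none was called. Cnmd and Acan had a log2 difference above 0 (0.42 and 0.27) and Scx one below 0 (-0.099). Pax9 (0.141 ± 0.124 and 0.434 ± 0.139 CPM) and Hapln1 (0.0928 ± 0.0550 and 0.311 ± 0.116 CPM) fell under the filter. Both were higher in every thoracic library than in any cervical one, as were 7.5% of all tested genes. Pax1 and Nkx3-2 were at most at 0.313 CPM, with higher means in cervical libraries. The 9 endothelial markers, such as Kdr, Cdh5 and Pecam1, summed to 8.90, 14.2 and 17.1 CPM in cervical against 19.4, 13.2 and 14.9 CPM in thoracic replicates. Their part in the collagen differences was not tested.

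Col5a1 encodes the chain of type V collagen that starts fibril assembly. It stood at 22.9, 35.8 and 46.9 CPM in cervical against 49.6, 56.4 and 67.6 CPM in thoracic replicates, with no overlap between the regions. Its log2 difference was -0.72 (SE 0.21, edgeR adjusted p = 0.253, and 0.0014 with the block), and the thoracic library was 2.17, 1.58 and 1.44 times the cervical one within numbers 1, 2 and 3. Col5a1 was called in each of the 3 blocked fits that left out a replicate number. These fits were chosen after seeing the data and had 1 residual degree of freedom each. The fit without number 1 gave no gene a spread of its own. Col5a2, the partner of Col5a1, stood at 28.8 ± 9.97 CPM in cervical against 36.6 ± 6.26 CPM in thoracic libraries. It was not called (edgeR adjusted p = 0.780, and 0.105 with the block). Col5a3 was scarce, at 1.11 ± 0.234 and 1.19 ± 0.225 CPM.

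Col2a1, the collagen of cartilage, notochord and embryonic neuroepithelium, was the most abundant collagen gene per length, at 11.5 CPM per kilobase on average. Its levels were 66.2, 123 and 87.5 CPM in cervical against 111, 138 and 113 CPM in thoracic replicates. Cervical replicates 1 and 3 were below all thoracic libraries and replicate 2 was not. The log2 difference was -0.38 (SE 0.18, edgeR adjusted p = 0.601, and 0.0291 with the block). Floor plate markers moved in the same direction, and 4 of 4 tested (Shh, Foxa2, Ntn1 and Spon1) were called higher in thoracic libraries with the block, against 1.39% of all genes, and none of them without it. Nkx2-9 fell under the filter, at most at 0.123 CPM. Of the 8 neural progenitor markers, 7 also had a log2 difference below 0, with a list median of -0.18. Pax6 went the other way (log2 difference 0.28) and was higher in cervical libraries in all 3 numbers. Nes stood at 177, 230 and 221 CPM in cervical against 248, 301 and 312 CPM in thoracic replicates, and Vim at 291, 348 and 283 against 378, 489 and 419 CPM. Neither Nes nor Vim overlapped between the regions, nor did Nkx6-1, while Sox2, Pax6, Olig2, Hes5 and Fabp7 did. Of all tested genes, 7.5% did not overlap with thoracic higher. The part of floor plate and progenitor cells in the Col2a1 difference was not tested.

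Type XI collagen genes, whose chains join type II in fine fibrils, were nearly level across the 6 libraries. Col11a1 stood at 42.4, 42.1 and 49.5 CPM in cervical against 46.5, 50.2 and 50.5 CPM in thoracic replicates, with cervical replicate 3 inside the thoracic range (log2 difference -0.14 with SE 0.08, edgeR adjusted p = 0.771). Col11a2 stood at 43.1, 37.1 and 34.0 CPM against 39.0, 38.4 and 35.8 CPM, with the thoracic libraries inside the cervical range (log2 difference 0.01 with SE 0.10, edgeR adjusted p = 0.992). Their highest library was 1.20 and 1.27 times their lowest, against 13.7 times for Col3a1. Of the remaining fibril-forming genes, Col27a1 stood at 4.86 ± 0.884 and 6.17 ± 0.850 CPM and Col24a1 at 1.05 ± 0.0320 and 0.689 ± 0.134 CPM in the cervical and the thoracic libraries, neither called in either fit.

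Among fibril-associated collagens, Col14a1 was the collagen gene called with region as the only term. Type XIV collagen sits on the surface of type I fibrils. The gene, on the plus strand of chromosome 15 from 55171146 to 55384199 (mm39), held 5.83, 4.58 and 4.69 CPM in cervical replicates 1, 2 and 3 and 9.95, 13.9 and 8.64 CPM in the thoracic ones. Every thoracic library was above every cervical one, and unlike Col1a1 and Col3a1 the 3 cervical values lay within 1.27 times of each other. The fitted thoracic level was 2.15-fold the cervical one (log2 difference -1.10 with SE 0.19, edgeR adjusted p = 0.0394, and 0.00618 with the block). The call was lost without cervical replicate 2 (edgeR adjusted p = 0.149), cervical replicate 3 (0.170), thoracic replicate 1 (0.0690) or thoracic replicate 2 (0.100), and with limma-voom (adjusted p = 0.0578).

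The other fibril-associated genes split by direction without a call in either fit. Col22a1, whose protein lies at tissue junctions such as that of muscle and tendon, stood at 3.81, 5.40 and 6.48 CPM in cervical against 8.53, 7.70 and 9.38 CPM in thoracic replicates, with no overlap (log2 difference -0.71 with SE 0.20, edgeR adjusted p = 0.217, and 0.0529 with the block). Col19a1, which some neurons express, went the other way, at 1.58, 2.76 and 2.75 CPM in cervical against 1.90, 0.644 and 1.02 CPM in thoracic replicates. Thoracic replicate 1 was above cervical replicate 1, so the regions overlapped (log2 difference 0.95 with SE 0.38, edgeR adjusted p = 0.507, and 0.323 with the block). Col12a1 (25.5 ± 3.19 and 24.9 ± 2.90 CPM), Col16a1 (3.13 ± 1.24 and 3.79 ± 0.789 CPM) and Col20a1 (5.73 ± 1.24 and 5.62 ± 1.65 CPM) differed between cervical and thoracic libraries by less than the spread between replicates.

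Type IX collagen coats type II fibrils with a chain from each of the genes Col9a1, Col9a2 and Col9a3, and these were not expressed evenly. Averaged over the 6 libraries, Col9a3 stood at 5.42 and Col9a2 at 4.83 CPM per kilobase, while Col9a1 stood at 0.112 CPM per kilobase. Col9a2 stood at 13.7, 16.7 and 13.1 CPM in cervical against 17.5, 15.6 and 13.1 CPM in thoracic replicates, with overlap (log2 difference -0.09 with SE 0.14, edgeR adjusted p = 0.940). Col9a3 stood at 19.1, 25.5 and 21.9 CPM against 21.2, 21.0 and 16.8 CPM, also with overlap (log2 difference 0.17 with SE 0.13, edgeR adjusted p = 0.826). Col9a1 had 2, 14 and 28 counts in the cervical and 37, 31 and 13 counts in the thoracic replicates.

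Basement membrane collagen was led by Col4a1 and Col4a2, the chains of the common type IV network. Col4a1 stood at 25.0, 45.0 and 80.4 CPM in cervical against 71.9, 86.2 and 110 CPM in thoracic replicates. Cervical replicates 1 and 2 were below all thoracic libraries and replicate 3 was above thoracic replicate 1. Its log2 difference was -0.83 (SE 0.32, edgeR adjusted p = 0.466, and 0.00268 with the block). Col4a2 stood at 17.2, 30.5 and 53.3 CPM against 50.5, 58.3 and 76.2 CPM, in the same order of libraries (log2 difference -0.87 with SE 0.31, edgeR adjusted p = 0.409, and 0.00211 with the block). Both were called in each of the 3 blocked fits that left out a replicate number. These fits were chosen after seeing the data and had 1 residual degree of freedom each. The fit without number 1 gave no gene a spread of its own.

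Col4a1 and Col4a2 stand head to head on chromosome 8 (mm39), Col4a1 on the minus strand from 11248423 to 11362826 and Col4a2 on the plus strand from 11362805 to 11499287, and their exons share 22 bases. Promoter windows from RefSeq (GRCm38.p6, 250 bases before to 50 after the start, 5′ to 3′ on the gene's strand) were found for 35 of the 44 genes. Those of Col4a1 and Col4a2, whose starts lie 21 bases apart, are printed because their levels ran in parallel, and those of Col1a2 and Col3a1 because these differed most between cervical libraries. Capitals mark the CCAAT box, read as CCAAT or as ATTGG on the other strand.
Col4a1, chr8:11312777-11313076, minus strand: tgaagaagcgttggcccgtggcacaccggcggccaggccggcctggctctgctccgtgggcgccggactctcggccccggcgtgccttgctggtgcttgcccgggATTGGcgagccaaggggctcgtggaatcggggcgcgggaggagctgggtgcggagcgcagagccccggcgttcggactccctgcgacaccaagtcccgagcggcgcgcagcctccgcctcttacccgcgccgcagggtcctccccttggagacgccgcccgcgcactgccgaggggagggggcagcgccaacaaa
Col4a2, chr8:11312555-11312854, plus strand: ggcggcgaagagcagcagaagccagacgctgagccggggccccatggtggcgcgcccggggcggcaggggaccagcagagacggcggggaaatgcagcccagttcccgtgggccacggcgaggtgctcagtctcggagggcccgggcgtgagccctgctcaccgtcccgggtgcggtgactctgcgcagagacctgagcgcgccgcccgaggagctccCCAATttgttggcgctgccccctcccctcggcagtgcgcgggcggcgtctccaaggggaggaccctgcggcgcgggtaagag
Col1a2, chr6:4505368-4505667, plus strand: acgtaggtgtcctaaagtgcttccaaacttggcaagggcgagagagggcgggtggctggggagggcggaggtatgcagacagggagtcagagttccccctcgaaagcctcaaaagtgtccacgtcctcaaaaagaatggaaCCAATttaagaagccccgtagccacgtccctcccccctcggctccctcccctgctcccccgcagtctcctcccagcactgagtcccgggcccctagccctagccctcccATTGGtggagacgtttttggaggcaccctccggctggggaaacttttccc
Col3a1, chr1:45311288-45311587, plus strand: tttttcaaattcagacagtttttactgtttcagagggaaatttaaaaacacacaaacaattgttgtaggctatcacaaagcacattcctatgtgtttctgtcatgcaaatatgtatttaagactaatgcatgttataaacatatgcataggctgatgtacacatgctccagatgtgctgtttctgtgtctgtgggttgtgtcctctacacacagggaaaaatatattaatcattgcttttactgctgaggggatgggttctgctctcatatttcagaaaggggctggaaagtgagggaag

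The windows of Col4a1 and Col4a2 each held 1 CCAAT box, at positions -145 and -32 from the start, and share 78 bases. That of Col1a2 held 2, and these letters are not in the window of Col3a1, which has a TATAAA at position -117. CCAAT was found on either strand in 34.2% of the 38 windows of collagen genes and in 37.4% of all 32851 windows. TATAAA was found in 13.2% and 13.6%, and the GC box GGGCGG in 60.5% and 35.7%. A match describes the letters and no binding.

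The ratio of Col4a1 to Col4a2 per kilobase was nearly constant, from 1.26 to 1.34 over the 6 libraries, while the level of Col4a1 itself spanned 4.39 times. The means were 1.31 ± 0.0266 in cervical and 1.28 ± 0.0255 in thoracic libraries (exact two-sided permutation test on log2 ratios, p = 0.3, where 3 against 3 libraries can give no less than 0.1). Ratios were computed for 5 pairs of chains chosen after their levels were seen, with Benjamini-Hochberg adjusted p-values over the 5 pairs. The ratio of Col1a1 to Col1a2 was 1.16, 0.986 and 0.918 in cervical and 1.27, 1.49 and 1.29 in thoracic replicates, without overlap (exact permutation p = 0.1, adjusted 0.25). That of Col6a1 to Col6a2 was 0.298, 1.05 and 1.32 in cervical and 0.774, 0.895 and 0.874 in thoracic replicates (exact permutation p = 1). Cervical replicate 1 had the lowest ratio of that pair by a wide margin, with 35 counts of Col6a1 and 223 of Col6a2. For Col9a2 over Col9a3 the ratio was 0.817 ± 0.0760 in cervical and 0.977 ± 0.0537 in thoracic libraries (exact permutation p = 0.1, adjusted 0.25), and for Col11a1 over Col11a2 it was 0.643 ± 0.130 and 0.703 ± 0.0585 (exact permutation p = 0.5, adjusted 0.625).

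**Figure D3:**
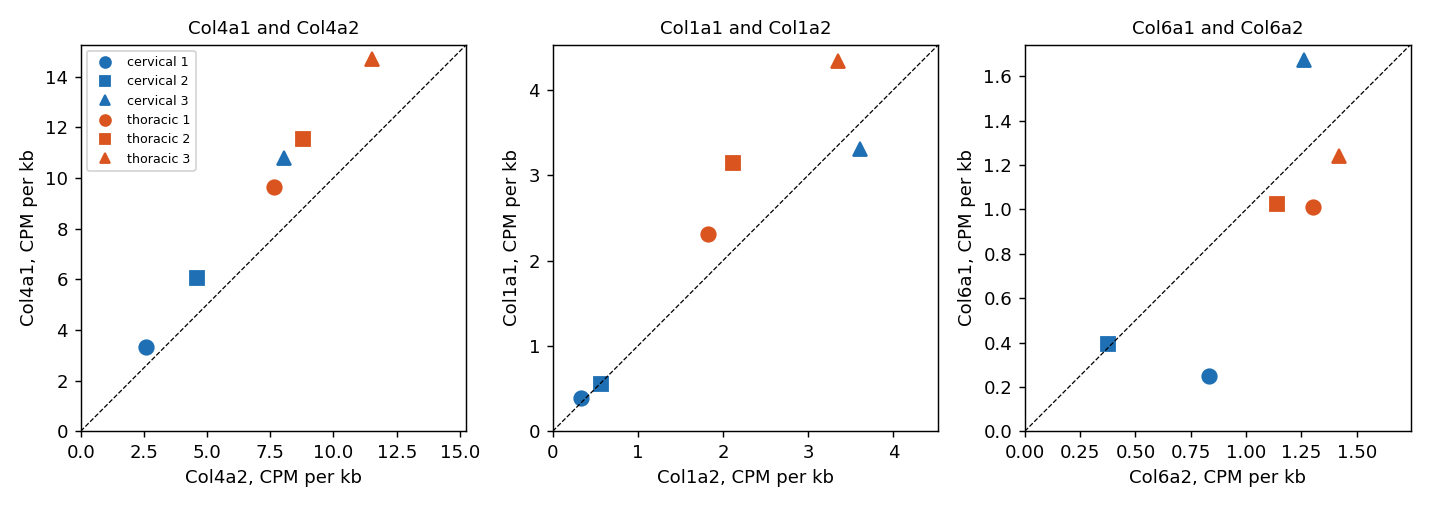
CPM per kilobase of gene length of Col4a1 against Col4a2, Col1a1 against Col1a2 and Col6a1 against Col6a2, with 1 point per library and a dashed line at equal levels. The points of the Col4a1 and Col4a2 pair lie along a single line above equality with ratios of 1.26 to 1.34, and cervical replicate 1 stands off the others for Col6a1 and Col6a2 with a ratio of 0.298.

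The other type IV chains, which replace the common ones in selected basement membranes, were lower. Col4a5 stood at 8.65, 17.2 and 17.4 CPM in cervical against 17.3, 20.1 and 18.7 CPM in thoracic replicates, with cervical replicate 1 apart from the rest (log2 difference -0.37 with SE 0.22, edgeR adjusted p = 0.740). Its head-to-head neighbour Col4a6 stood at 3.96 ± 1.33 and 5.24 ± 0.402 CPM in the cervical and the thoracic libraries (edgeR adjusted p = 0.753). The divergent pair Col4a3 and Col4a4 was near the limit of detection. Col4a4 had 25 to 62 counts per library (edgeR adjusted p = 0.987), and Col4a3 had 3 to 21 counts and was not tested.

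Type VIII collagen, a short-chain network collagen of vessel walls and of the basement membrane of the cornea, had both genes called with the block. Col8a1 stood at 1.08, 2.29 and 3.0 CPM in cervical against 5.24, 3.99 and 5.25 CPM in thoracic replicates, and every thoracic library was above every cervical one. Its log2 difference was -1.18 (SE 0.31, edgeR adjusted p = 0.186, and 0.0386 with the block). Col8a2 stood at 0.930, 2.46 and 3.44 CPM against 4.14, 5.18 and 6.95 CPM, again without overlap (log2 difference -1.24 with SE 0.37, edgeR adjusted p = 0.282, and 0.0102 with the block). Col10a1, the related collagen of cartilage undergoing ossification, had 5 to 25 counts per library, with a log2 fold change of -1.16 (SE 0.51, edgeR adjusted p = 0.558). The 9 markers of meninges and pericytes summed to 168 to 241 CPM in cervical against 157 to 205 CPM in thoracic libraries. Aldh1a2, which limb-level motor neurons also express, and Notch3, which neural progenitors also express, made up most of that sum, and Tbx15 fell under the filter, at most at 0.261 CPM. Of the 8 tested, 6 had a log2 difference below 0, and Aldh1a2 and Slc6a13 had one above 0 (2.44 and 1.08). None of the list was called without the block. With it the pericyte genes Cspg4 and Abcc9 (edgeR adjusted p of 0.00796 and 0.0170) and Notch3 (0.0340) were called higher in thoracic libraries, against 1.39% of all genes. Aldh1a2 (edgeR adjusted p = 1.66e-05) was called higher in cervical ones, against 0.573% of all genes. The part of these markers in the type VIII difference was not tested.

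Type VI collagen, which forms beaded filaments next to basement membranes, had no called gene. Col6a3 did not overlap between the regions, at 7.69, 6.75 and 9.95 CPM in cervical against 10.0, 13.0 and 10.3 CPM in thoracic replicates (log2 difference -0.45 with SE 0.17, edgeR adjusted p = 0.474, and 0.296 with the block). Col6a1 stood at 1.08, 1.73 and 7.32 CPM against 4.42, 4.48 and 5.43 CPM, with cervical replicate 3 the highest of all. Col6a2 stood at 6.91, 3.14 and 10.5 CPM against 10.9, 9.51 and 11.8 CPM (edgeR adjusted p = 0.651, and 0.108 with the block). The chains Col6a4, Col6a5 and Col6a6, which can take the place of Col6a3 and lie side by side on chromosome 9, each averaged under 1 CPM in both regions.

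Transmembrane collagens, among them those known from nerve and muscle contacts, differed one from another. Col13a1, whose product is a muscle-derived signal at the neuromuscular junction, stood at 1.74, 1.44 and 0.939 CPM in cervical against 2.11, 3.65 and 4.45 CPM in thoracic replicates. It had the lowest log2 fold change of the 42 genes and no overlap, yet was not called (log2 difference -1.30 with SE 0.33, edgeR adjusted p = 0.159, and 0.0797 with the block). DESeq2 did call it higher in thoracic libraries, as it did Col8a1, Col8a2, Col14a1 and Col22a1. The 9 skeletal muscle markers summed to 1.22 to 3.22 CPM in cervical libraries and to 1.81 to 3.27 CPM in thoracic ones. Of these 9, 3 passed the filter and none was called. Their part in the Col13a1 values was not tested.

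Col25a1, the gene of the transmembrane type XXV collagen, lay in the cervical direction. It stood at 10.2, 17.0 and 13.8 CPM in cervical against 10.1, 11.3 and 8.61 CPM in thoracic replicates, and the cervical library was higher in each number, though by little in number 1. Thoracic replicate 2 was above cervical replicate 1, and the gene was not called (log2 difference 0.45 with SE 0.18, edgeR adjusted p = 0.508, and 0.241 with the block). The 8 motor neuron markers summed to 636, 309 and 425 CPM in cervical replicates and to 579, 373 and 514 CPM in thoracic ones. Their part in the Col25a1 values was not tested. Of the other transmembrane collagens, Col23a1 stood at 15.0 ± 1.90 and 17.6 ± 1.37 CPM and Col17a1, a component of epithelial anchoring junctions, at 0.861 ± 0.243 and 1.20 ± 0.338 CPM, neither called in either fit.

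Several of the more abundant collagen genes did not pass the test in any direction and varied little. Col18a1, a basement membrane collagen whose end fragment is endostatin, stood at 42.9, 56.1 and 56.1 CPM in cervical against 47.7, 47.3 and 45.8 CPM in thoracic replicates. The cervical libraries lay on both sides of the thoracic ones (log2 difference 0.14 with SE 0.10, edgeR adjusted p = 0.821). Its relative Col15a1 stood at 3.55 ± 0.888 and 3.30 ± 0.254 CPM. Col26a1 did not overlap between the regions, at 18.4, 15.7 and 15.6 CPM in cervical against 15.3, 14.3 and 15.5 CPM in thoracic replicates, but the difference was small (log2 difference 0.14 with SE 0.11, edgeR adjusted p = 0.828). Col7a1, the anchoring fibril collagen of skin, stood at 6.89 ± 0.902 and 7.87 ± 1.04 CPM, and Col28a1 had 1 to 11 counts per library and was not tested.

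**Figure D4:**
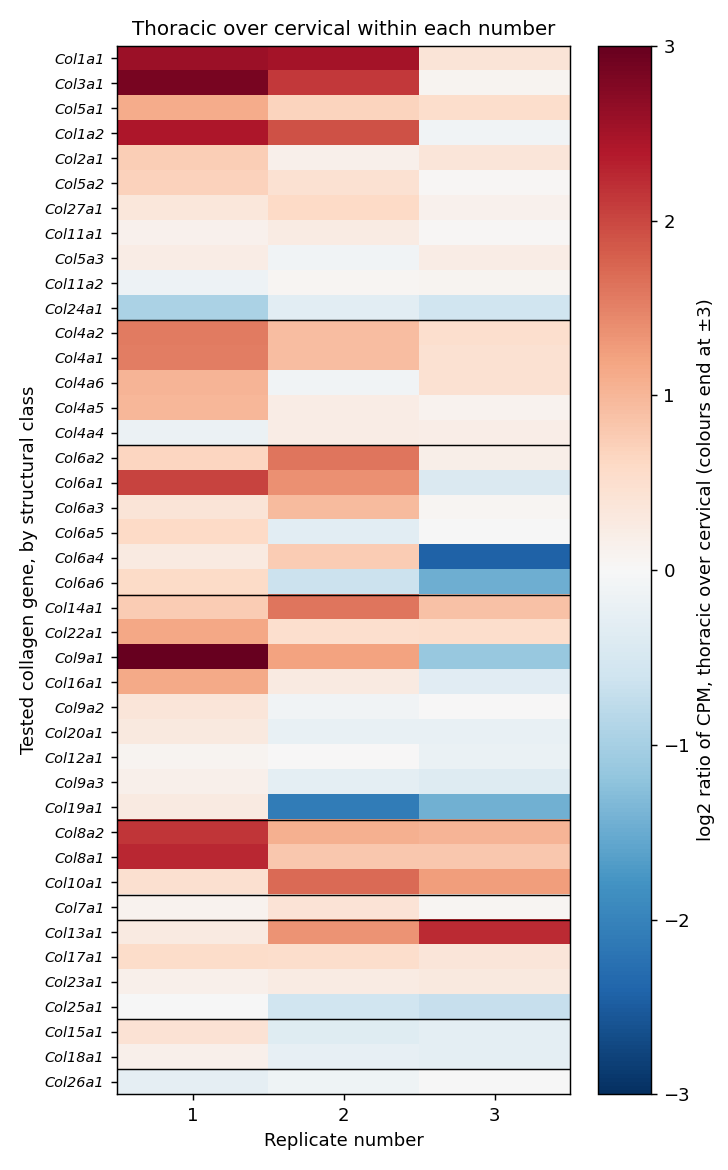
Log2 ratio of CPM, thoracic over cervical, within replicate numbers 1, 2 and 3 for the 42 tested collagen genes by class, red where thoracic is higher and blue where cervical is higher. Col1a1, Col1a2 and Col3a1 are deep red in numbers 1 and 2, and in number 3 Col1a1 and Col3a1 are pale and Col1a2 is faintly blue, while Col8a1, Col8a2, Col14a1, Col4a1, Col4a2 and Col5a1 are red in all 3.

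Summed levels by class differed in how far the regions stood apart. Type VIII and X genes summed to 4.63 ± 2.18 CPM in cervical against 10.8 ± 1.56 CPM in thoracic libraries, without overlap, and type IV genes to 103 ± 50.8 and 176 ± 33.0 CPM, with cervical replicate 3 above thoracic replicate 1. Fibril-forming genes summed to 305 ± 97.2 and 420 ± 52.4 CPM and type VI genes to 20.0 ± 8.90 and 28.0 ± 0.909 CPM, with overlap between the regions in both. Fibril-associated genes summed to 84.1 ± 9.43 and 90.6 ± 8.02 CPM, transmembrane genes to 30.9 ± 3.41 and 32.2 ± 2.30 CPM, and Col15a1 with Col18a1 to 55.2 ± 8.49 and 50.2 ± 0.968 CPM. These last 3 sums differed by less than the spread between replicates.

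Genes that make, process and bind collagen were read from 4 further lists. Of 20 genes of collagen modification and folding, none was called and Serpinh1 (HSP47), the chaperone dedicated to procollagen, was called with the block. It stood at 38.3, 64.3 and 74.1 CPM in cervical against 70.8, 88.6 and 81.0 CPM in thoracic replicates, with cervical replicate 3 above thoracic replicate 1 (log2 difference -0.44 with SE 0.19, edgeR adjusted p = 0.538, and 0.0360 with the block). The list's median log2 fold change was -0.23. P4hb, a subunit of prolyl hydroxylase that also folds other proteins, was its most abundant member per length (75.3 CPM per kilobase) and was not called (edgeR adjusted p = 0.808).

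Of 12 tested genes of procollagen processing and cross-linking, none was called. Bmp1, the protease that trims procollagen ends, was called higher in thoracic libraries with the block (log2 difference -0.26 with SE 0.08, edgeR adjusted p = 0.279, and 0.0444 with the block). It was also the most abundant of the list per length, at 106, 119 and 132 CPM in cervical against 136, 143 and 149 CPM in thoracic replicates. Of 11 tested collagen receptors none was called in either fit. The most abundant was Adgrg1, an adhesion receptor for type III collagen, at 283 ± 9.46 and 294 ± 31.2 CPM (log2 difference -0.06 with SE 0.08, edgeR adjusted p = 0.931).

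Of 11 tested collagen-binding matrix partners, 2 were called higher in thoracic libraries (0.35% of all genes) and 4 were with the block (1.39% of all genes), and the list's median log2 fold change was -0.50. Hspg2, the basement membrane proteoglycan perlecan, stood at 49.0, 66.7 and 61.9 CPM in cervical against 85.2, 107 and 104 CPM in thoracic replicates. Every thoracic library was above every cervical one (log2 difference -0.73 with SE 0.12, edgeR adjusted p = 0.0249), a call lost without cervical replicate 3 (edgeR adjusted p = 0.109), thoracic replicate 2 (0.0987) or thoracic replicate 3 (0.106). Fn1, fibronectin, stood at 65.5, 77.2 and 79.0 CPM against 113, 116 and 118 CPM, also without overlap (log2 difference -0.65 with SE 0.08, edgeR adjusted p = 0.00954). With the block these were joined by Nid2, nidogen-2 of basement membranes (log2 difference -1.01 with SE 0.32, edgeR adjusted p = 0.318, and 0.0102 with the block), and Bgn, biglycan (log2 difference -0.96 with SE 0.36, edgeR adjusted p = 0.446, and 0.0269 with the block). Sparc, the most abundant partner per length (18.7 CPM per kilobase), was not called (edgeR adjusted p = 0.817).

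Some of these counts may hold reads of other genes that share exonic bases. Col20a1 shares 79 bases on the same strand with 9230112E08Rik, which averaged 414 counts against 210 for Col20a1. On the opposite strand Col9a3 shares 234 bases with Tcfl5 (75.7 counts on average), Col10a1 shares 18 with Nt5dc1 (104 counts) and Col4a3 shares 563 with C430014B12Rik (12.2 counts). No source used here gives the strand setting of the counting, so part of the values of these 4 genes may belong to their partners. The other partners of collagen genes averaged at most 14.5 counts, apart from Col4a1 and Col4a2 with each other.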

How the data were processed

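The deposited table holds whole-number counts of reads per gene in 6 libraries of ribosomal RNA-depleted total RNA. Libraries were made with a stranded kit from 10 to 20 ng of RNA and 15 PCR cycles, per the labels' protocols. The submitters' processing notes name FastQC 0.11.9, STAR 2.7.5b, featureCounts 2.0.1 and mm39. No source used here gives the strand setting or the annotation release. Gene lengths are the exonic lengths in bases that the authors deposited with the counts.

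Counts were filtered by edgeR's default (4.0.16, R 4.3.3, minimum count 10), which kept 21972 of 56805 genes and removed 0.117% of counts. After TMM scaling, region alone entered edgeR's quasi-likelihood model, with Benjamini-Hochberg adjustment over all tested genes and a threshold of 0.05. Log2 fold changes use a prior count of 0.125, and the SE is the fold change divided by the root of F. Means are ± SD over 3 libraries, and CPM per kilobase uses the deposited gene length. No molecular identifiers are mentioned, so reads are not independent molecules.

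Replicate numbers come from the titles. Once each region's mean was removed, same-numbered libraries of the regions correlated at 0.163, 0.160 and 0.195 and other pairs at -0.179 to 0.0083, so the numbers were taken as pairs. Pairs of libraries within a region had a chi-square of 10.1 to 16.2 per degree of freedom over genes with 10 or more reads, above counting noise, and each was 1 sample.

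The test was checked on simulated counts. Alternatives were the replicate block, median-of-ratios scaling, library totals, 2 other filters, DESeq2 1.42.0, limma-voom (limma 3.58.1) and leaving out each library, and blocked fits without a replicate number were added after seeing the data. The members and lists were chosen with earlier results of these data known. A gene of the cell type lists is not reported here and was left out of its list. Values in every library are given for collagen genes called in either fit, the 10 highest in CPM per kilobase and the 8 with the largest fold change at a mean of at least 1 CPM in the higher region. Other collagen genes, such as Col22a1, Col25a1 and Col26a1, are given to describe a class and were picked with their values seen. From each list the genes called in either fit and the most abundant per kilobase are named.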

Additional observations from a re-analysis of the deposited data

How the results depend on the processing

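The count of collagen genes called was 1 with median-of-ratios scaling, library totals or a mean CPM of at least 1, 9 with the replicate block, 5 with DESeq2 (Col8a1, Col8a2, Col13a1, Col14a1 and Col22a1), 0 with limma-voom (16 of 42 at an unadjusted p under 0.05, against 1953 of 21972 genes in all, of which 107 were called) and 0 to 3 when a library was left out. Every one of these calls was higher in thoracic libraries. Without a low-count filter it was 14, but there edgeR gave infinite prior degrees of freedom and so no spread of its own to any gene, and Col3a1 was called with overlapping regions. The same held for the blocked fit without number 1, where 12 were called, 2 of them higher in cervical libraries. The count of all genes was 432 with the block, 408 with DESeq2, 747 unfiltered, 9 to 159 without a library and 798, 184 and 283 in the blocked fits without number 1, 2 and 3. The count of genes of the 4 further lists was 6 with the block, 12 unfiltered, 1 to 2 without a library and 3 to 7 in the blocked fits without a number. Log2 fold changes of genes that were not called changed sign: Col6a4 to 0.13 with the block, Col20a1 to -0.0069 and Col6a4 to 0.35 with limma-voom. When a library was left out the lowest and highest values were -0.32 and 0.10 for Col4a4, -0.19 and 0.23 for Col20a1, -0.041 and 0.29 for Col15a1, -0.21 and 0.010 for Col9a2, -0.45 and 0.023 for Col16a1, -0.23 and 0.076 for Col5a3, -0.043 and 0.14 for Col12a1, -0.17 and 0.95 for Col6a6, -0.25 and 0.045 for Col6a5, -0.58 and 0.55 for Col6a4, and -0.086 and 0.087 for Col11a2. In the blocked fits without a number the lowest and highest values were 0.40 and 0.74 for Col6a4, -0.051 and -0.033 for Col20a1, and -0.068 and -0.035 for Col15a1, with 0.047 for Col9a2, 0.037 for Col16a1, 0.16 for Col6a5, -0.062 for Col11a2, -0.042 for Col12a1 and -0.040 for Col6a6. None of these passed the test, and the causes were not tested. The blocked fits without a number were chosen after seeing the data. The difference in summed collagen level, thoracic minus cervical, was 204 CPM and 121 to 289 CPM when a library was left out.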
